A study of Homo sapiens with 6 samples.

Results

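Chromatin that was open under both conditions and gave a stronger DNase-seq peak after dexamethasone was examined in A549, an established human line from a lung adenocarcinoma. Dexamethasone is a synthetic steroid hormone and a ligand of the glucocorticoid receptor. Cells had received 100 nM dexamethasone for 1 h or 0.02% ethanol, the vehicle, for 1 h, with 3 libraries per treatment. All libraries came from this single cell line. The labels do not say whether the libraries of a treatment were separate cultures, so the spread between them may be technical. Peaks of the 6 libraries that shared at least 1 bp were merged to 81216 regions, of which 39934 had a peak in all 6 libraries and are called shared regions here. Each peak was ranked by its −log10 q within its own list, as a percentile with 100 for the strongest, and the highest peak counted where a library had several in a region. A shared region was a member when its lowest percentile among the 3 dexamethasone libraries exceeded its highest among the 3 ethanol libraries. This held for 2031 regions, 5.09% of the shared regions. The gap between those percentiles is called the margin below. The rule used the values of this same contrast, so percentiles, folds and widths of members are descriptions and carry no test.

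DNase I cuts DNA where nucleosomes are displaced or mobile, so a DNase-seq peak marks an accessible site such as a promoter, an enhancer or an insulator. In the absence of hormone the glucocorticoid receptor is held mostly in the cytoplasm by chaperones, and ligand sends it to the nucleus. There it binds largely at chromatin that is already accessible, and it recruits coactivators and remodelling complexes that can open a site further. A shared region with a stronger peak after hormone differs by definition from a site called in hormone alone, since a peak was called there under vehicle too. A call depends on the caller's limit, so this need not be a difference in kind.

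Members with a wide margin are the clearest cases, and they were mostly weak under vehicle. The widest was chr10:104429193-104429866 (hg19, as all positions here). Its percentiles were 88.7, 85.4 and 80.4 in dexamethasone replicates 1 to 3 and 14.3, 13.0 and 8.2 in ethanol replicates 1 to 3. The strongest peak of this region was thus in the upper part of each dexamethasone list and near the bottom of each ethanol list. It did not lie at the same position in every library. The summit of ethanol replicate 3 was at 104429704, and those of the other libraries lay between 104429387 and 104429463. The authors' fold enrichment is given at a summit, and the highest of each library in a region was read, so positions can differ between libraries. Here it was 11.0 ± 1.23 with dexamethasone and 4.25 ± 0.173 with ethanol (SD, n = 3 each), 2.58 times as high. That was the highest ratio of mean folds among all shared regions. Its peaks were 634 bp wide on average with dexamethasone and 322 bp with ethanol. Widths are summed here and below where a library had several peaks in a region.

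The next widest margin lay at chr1:145246116-145246798. Its percentiles were 84.4, 83.7 and 90.4 with dexamethasone and 25, 9.5 and 2.3 with ethanol, with folds of 10.6 ± 0.193 and 4.2 ± 0.591 (SD, n = 3 each). The ethanol libraries differed among themselves here, and each was far below every dexamethasone library. At chr11:75053756-75054405 the dexamethasone libraries stood at 71.2, 73.6 and 75.5 and the ethanol libraries at 13.4, 14.4 and 7.8. Replicates of either treatment lay close together at that site, and its folds were 6.96 ± 0.315 and 3.66 ± 0.129 (SD, n = 3 each).

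A fold and a percentile need not rank sites alike. The region chr17:80255253-80255622 had percentiles of 73.0, 74.5 and 83.2 with dexamethasone and of 23.5, 4.4 and 25.1 with ethanol. Its folds were the lowest of the 20 members with the widest margins, at 5.31 ± 0.638 and 2.83 ± 0.343 (SD, n = 3 each). The highest mean dexamethasone fold of the 20 was that of chr9:73053398-73053852, at 12.7 ± 0.576 against 5.84 ± 1.46 with ethanol (SD, n = 3 each). Its ethanol percentiles were widely spread, at 38.7, 15.6 and 2.1, while its dexamethasone percentiles were 80, 76.3 and 84.4.

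Some members had a peak near the very end of the ethanol lists. At chr7:80410841-80411343 the ethanol percentiles were 2.2, 8.4 and 1.0 and the dexamethasone percentiles 49.7, 50.8 and 51.5, the smallest spread with dexamethasone among the 20. At chr22:40654428-40655062 they were 1.1, 11.6 and 7.3 with ethanol and 56.7, 58.6 and 49.2 with dexamethasone. At chr2:216363139-216363535 they were 8.3, 8.0 and 4.3 with ethanol and 53.4, 57.5 and 70.9 with dexamethasone, and its mean fold was 2.08 times as high with dexamethasone. Such peaks stood close to the caller's limit under vehicle and in the middle of the list or above it after hormone.

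Other members stood higher under vehicle, yet still low among the shared regions. The mean ethanol percentiles of the next 2 were 35.7 and 39.7, and the lower quartile over all shared regions was 46.8. The region chr17:38177614-38178258 had ethanol percentiles of 27.2, 47.4 and 32.3 and dexamethasone percentiles of 87.7, 89.3 and 92.1, which included the highest single value of the 20. At chr19:45657250-45658068 the ethanol libraries stood at 42.8, 30.3 and 46.1 and the dexamethasone libraries at 86.2, 83.9 and 84.0. The peaks of that region on chromosome 19 were 786 bp wide with dexamethasone and 310 bp with ethanol, the largest ratio of widths among the 20 (2.54). All 6 libraries placed its summit within 7 bp.

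**Figure D1:**
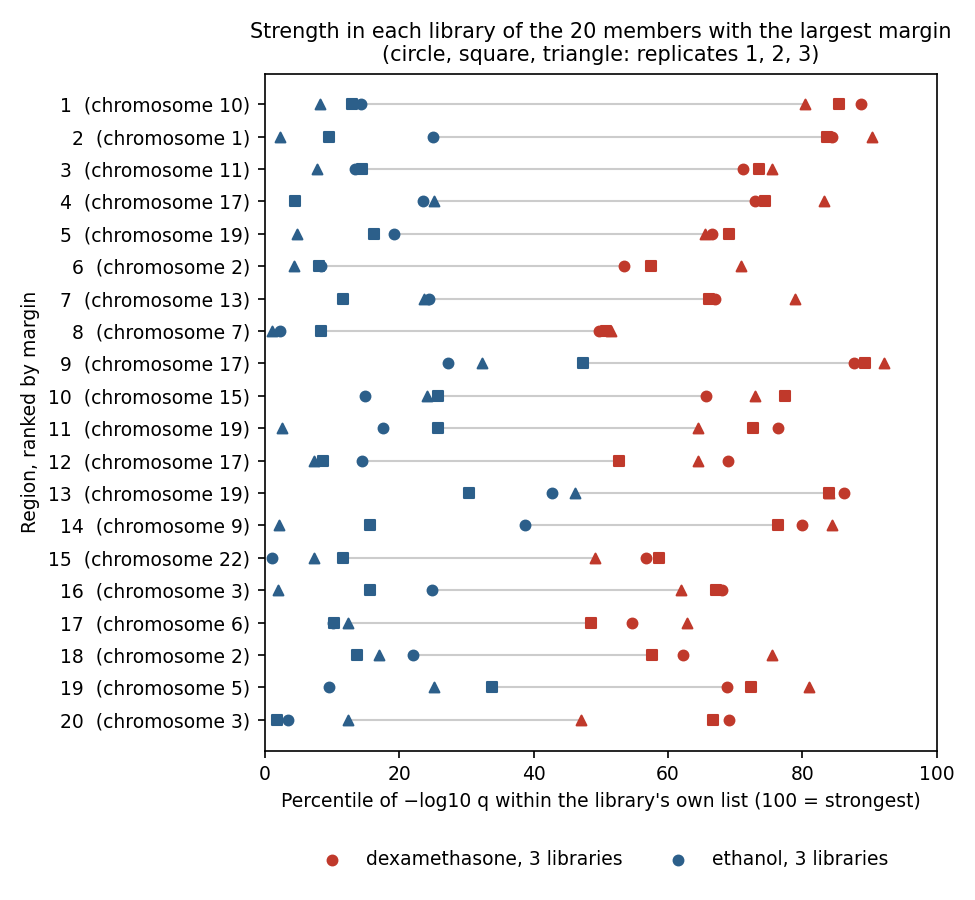
Percentile of a peak's −log10 q among the peaks of its library (x axis, 100 = strongest) in each of the 3 dexamethasone (red) and 3 ethanol (blue) libraries for the 20 members with the widest margins, with 1 region per row and a grey line over the margin. The dexamethasone points lie between 47.0 and 92.1 and the ethanol points between 1.0 and 47.4, with margins from 34.6 to 66.1.

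The remaining 10 of the 20 had margins from 34.6 to 46.3 percentile points. Chromosome 19 held a further pair, chr19:47834980-47835650 (mean percentile 67.0 ± 1.8 with dexamethasone and 13.4 ± 7.7 with ethanol; SD, n = 3 each) and chr19:45198640-45199216 (71.1 ± 6.0 and 15.2 ± 11.8). Chromosome 17 held one more at chr17:55098926-55099407 (62.0 ± 8.4 and 10.2 ± 3.8). Chromosome 3 held chr3:43789595-43790054 (65.7 ± 3.2 and 14.2 ± 11.6) and chr3:118924012-118924893 (60.9 ± 12.1 and 5.9 ± 5.7). At the latter the lowest dexamethasone library, replicate 3, stood at 47.0 and the other two at 69.1 and 66.7. The summits of the 6 libraries spanned 605 bp there, the largest span of the 20, so they did not mark the same position. The others were chr13:110746912-110747492 (70.7 ± 7.2 and 19.9 ± 7.2), chr15:82592656-82593022 (72.0 ± 6.0 and 21.6 ± 5.8), chr6:14732978-14733904 (55.3 ± 7.2 and 10.9 ± 1.2), chr2:192711592-192712235 (65.1 ± 9.2 and 17.6 ± 4.2) and chr5:131550970-131551401 (74.0 ± 6.3 and 22.9 ± 12.3). Across the 20 regions the mean fold was 1.63 to 2.58 times as high with dexamethasone. The folds of the 3 dexamethasone libraries exceeded those of the 3 ethanol libraries in 20 of 20 regions, and the peak widths did so in 19 of 20.

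Most members differed far less than these. The margin had a median of 2.72 percentile points and reached 66.1. It was at most 1 point in 527 members (25.9%), over 5 points in 682 (1.71% of the shared regions), over 10 in 324 and over 20 in 100 (4.92% of the members). The last members inside the threshold were chr11:59522324-59522965, chr8:25101162-25101766 and chr6:16760215-16760857, with margins of 0.00472, 0.00388 and 0.00136 points. At chr11:59522324-59522965 the dexamethasone percentiles were 64.7, 73.7 and 71.1 and the ethanol percentiles 61.9, 64.7 and 63.6, so that replicate 1 of dexamethasone and replicate 2 of ethanol were nearly level. Just outside lay chr17:4843060-4843986, chr1:227127080-227128145 and chr17:43324687-43325438, with margins of −0.000402, −0.00074 and −0.00167. These are among the strongest peaks of all libraries, with mean ethanol percentiles from 95.7 to 98.3.

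The number of members was close to that of regions set apart by other groupings of the libraries, and is by itself no result about dexamethasone. The reverse rule, with all 3 ethanol libraries above all 3 dexamethasone libraries, gave 2555 regions (6.4% of the shared regions), called the weaker set below. Each of the 18 sets that mix treatments gave 1101 to 3048 regions, with a median of 1888. Among the 20 sets of 3 libraries the dexamethasone set came 8th and the ethanol set 4th. The largest joined dexamethasone replicate 2 with ethanol replicates 2 and 3. The ratio of members to the weaker set, 0.795, turned to 1.03 when percentiles were taken over the shared regions alone. In the other settings with no margin asked the members stayed the smaller set, at ratios of 0.678 to 0.956. The surplus of weaker regions was thus frequent but not found under every setting. Shared regions stood higher in the 3 longest lists: their median percentile was 66.7 in dexamethasone replicate 2 and 66.7 and 67.0 in ethanol replicates 2 and 3, against 65.3 to 65.4 in the others.

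The order of the sets changed with the margin. With a margin over 5 points the 682 members came 4th of the 20 sets, below the 704 of the weaker set (1.76%) and within the 154 to 784 of the mixed sets. With a margin over 10 points there were 324 members (0.811% of the shared regions) against 254 in the weaker set (0.636%) and 36 to 281 in the mixed sets, an order that turned under pairing (722 against 753). With a margin over 20 points there were 100 members (0.25%) against 34 in the weaker set (0.0851%) and 2 to 35 in the mixed sets, whose median was 5.5. The dexamethasone set was then the largest of the 20, 2.86 times the largest of the mixed sets (dexamethasone replicate 3 and ethanol replicates 2 and 3). The ethanol set lay within the range of the mixed sets at that margin, but under pairing it lay above them (105 against 10 to 35). The limits of 10 and 20 points were chosen after the values were seen. Leaving out 1 library loosens the rule, and 150 to 182 members then passed 20 points against 73 to 121 of the weaker set. The ratio between the sets, 2.94 with all libraries, was 1.39, 1.27 and 1.37 without dexamethasone replicates 1, 2 and 3 and 1.56, 2.25 and 2.46 without ethanol replicates 1, 2 and 3. The members were the larger set each time, by a smaller factor.

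**Figure D2:**
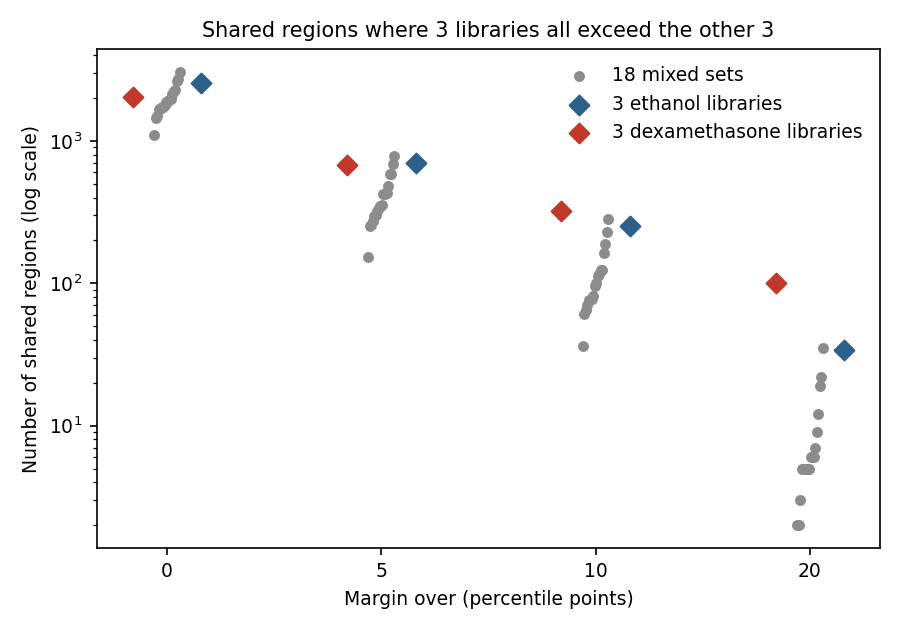
Number of shared regions (y axis, log scale) in which 3 libraries all exceed the other 3 by more than the margin on the x axis (percentile points), for the 3 dexamethasone libraries (red), the 3 ethanol libraries (blue) and the 18 mixed sets (grey). At a margin over 0 the dexamethasone set (2031) lies among the mixed sets (1101 to 3048), and at a margin over 20 it (100) lies above all of them (2 to 35).

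Libraries with the same number deviated together weakly over the shared regions (r of 0.12 to 0.22), so members were also counted by pairs. Each dexamethasone library exceeded the ethanol library of its own number in 5101 shared regions (12.8%), and the reverse held in 6450 (16.2%). The 6 arrangements in which the pairs disagreed in direction gave 3522 to 6089. With over 5 points in each pair, dexamethasone led in 1622 (4.06%) and ethanol in 1990 (4.98%), and with over 10 points in 722 (1.81%) and 753 (1.89%). With a difference over 20 points they were 186 (0.466%) for dexamethasone, 105 (0.263%) for ethanol and 10 to 35 for the others, so that the first was 1.77 times the next. Under pairing the dexamethasone count thus exceeded the ethanol count only at over 20 points, of the 4 limits read. At over 5, 10 and 20 points both counts lay above every arrangement in which the pairs disagreed (at most 1526, 436 and 35).

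The only strength values that the choice of members did not use are those of libraries left out of it. Regions were therefore chosen by the same rule in 2 dexamethasone and 2 ethanol libraries and read in the library of each treatment left out, for all 9 such pairs. Only shared regions were eligible, so each already had a peak in the libraries left out, and that presence was part of the choice. With no margin asked, 5342 to 7323 regions were chosen. The share with a higher percentile in the dexamethasone library left out was 54.7 ± 7.15% over the 3 pairs of equal number and 49.6 ± 4.4% over the 6 pairs of different number (SD). Over all shared regions it was 48.0 ± 3.63% and 47.9 ± 3.97%. It was above that background in 8 of 9 pairs, by at most 10.7 points, and below it for dexamethasone replicate 3 with ethanol replicate 2 (42.9 against 44.3%). Membership without a margin thus carried over to other libraries only slightly.

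Regions chosen with a margin over 20 points carried over in 9 of 9 pairs. Of 235 to 333 regions chosen, 67.0 to 84.3% were higher in the dexamethasone library left out, against 43.8 to 54.8% of all shared regions. The mean was 82.4 ± 2.53% for pairs of equal number and 75.3 ± 5.74% for pairs of different number (SD, n = 3 and 6 pairs, which share libraries). The median difference in the pair left out was 12.7 to 24.5 percentile points. Regions chosen as weaker by the same margin moved the same way in 49.9 to 75.5%, above their background in 8 of 9 pairs. The exception was dexamethasone replicate 3 with ethanol replicate 1, at 49.9 against 51.8%. The pairs share libraries and regions, so no test was made of these shares.

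**Figure D3:**
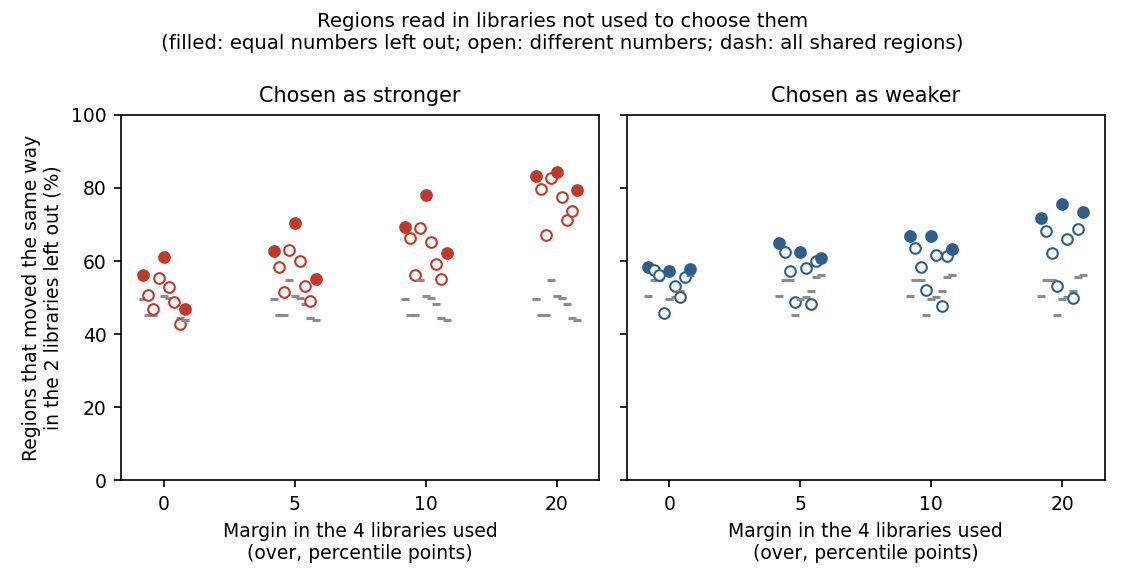
Share of regions that moved in the chosen direction in the 2 libraries not used to choose them (y axis, %), by the margin asked in the other 4 libraries (x axis, percentile points), for regions chosen as stronger (left) and as weaker (right) after dexamethasone. Filled points are the 3 pairs of equal number, open points the 6 pairs of different number, and dashes the share over all shared regions. With a margin over 20 the stronger regions reach 67.0 to 84.3% and the weaker ones 49.9 to 75.5%.

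The members covered the whole range of strength, and the wide margins came from the lower and middle part. The mean ethanol percentile of members had a median of 52.4 (quartiles 31.1 and 73.7), against 65.3 over all shared regions. After dexamethasone the members' median was 68.0, close to the 64.5 of all shared regions. For the 100 members with a margin over 20 points the medians were 20.7 with ethanol and 65.7 with dexamethasone. Of these, 56 had a mean percentile under 25 with ethanol and over 50 with dexamethasone, and 16 had a mean over 75 with dexamethasone. The weaker set showed much the same in the opposite direction, with medians of 54.0 with dexamethasone and 67.6 with ethanol. Its 34 regions with a margin over 20 points had medians of 19.4 and 55.8. Of those 34, 14 had a mean under 25 with dexamethasone and over 50 with ethanol. Among shared regions with a mean percentile over all libraries above 80 no margin exceeded 20 points. Above a mean of 90 the scale leaves no room for one. From 80 to 90 it does, and 4 of 5634 regions there passed 10 points as members and 0 as weaker regions. The reason for the lack from 80 to 90 was not tested.

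**Figure D4:**
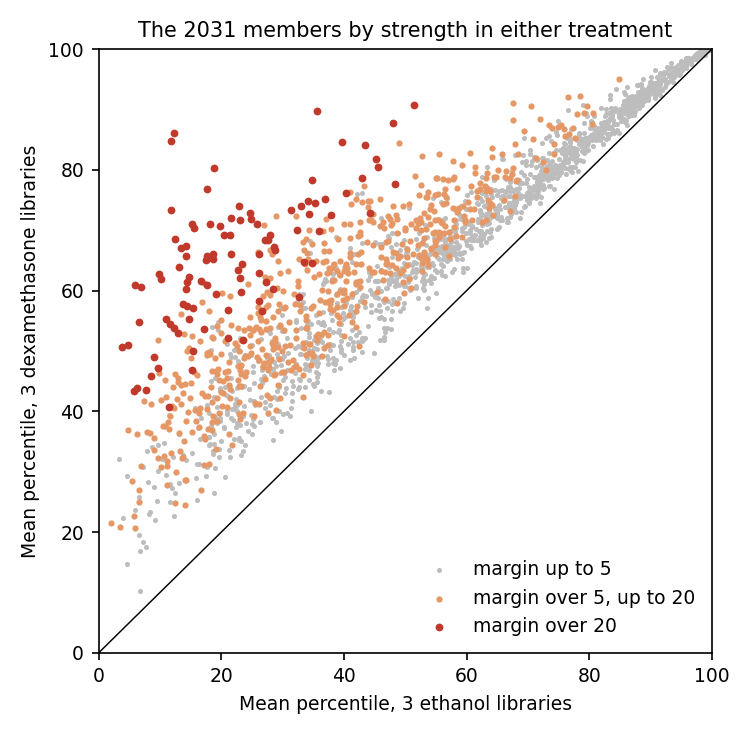
Mean percentile of −log10 q in the 3 dexamethasone libraries (y axis) against that in the 3 ethanol libraries (x axis) for the 2031 members, coloured by margin, with the line of equality. The 100 members with a margin over 20 (red) have ethanol means from 3.84 to 51.4 and dexamethasone means from 40.7 to 90.7.

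On the fold scale the members' mean fold enrichment was a median of 1.2 times as high with dexamethasone (central 90% from 1.07 to 1.55), against 1.00 over all shared regions (0.826 to 1.19). For a margin over 20 points the median was 1.64 (1.40 to 2.05). The folds of the 3 dexamethasone libraries all exceeded those of the 3 ethanol libraries in 1452 of the 2031 members (71.5%) and in 100 of the 100 with a margin over 20. The 1452 were 63.5% of the 2288 shared regions (5.73%) that folds alone set apart in this direction. A fold and a q of 1 peak come from the same reads, so this is no independent measure.

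Some members were strong sites under both treatments. There were 371 members (18.3%) with a mean ethanol percentile over 80, and their folds were a median of 1.11 times as high with dexamethasone, at most 1.29. The upper quartile of that mean was 73.7 over members and 82.9 over all shared regions, so such sites were rarer among members. In the weaker set 514 regions (20.1%) had a mean dexamethasone percentile over 80. Their folds were a median of 1.08 times as high with ethanol, at most 1.46. The 4 members with the highest ratios among the 371 were singled out after the values were seen. At chr16:57496325-57496903 the percentiles were 92.2, 94.7 and 93.3 with dexamethasone and 80.1, 84.8 and 88.0 with ethanol, and the folds 16.0 ± 2.01 and 12.4 ± 0.868 (SD, n = 3 each). This site also lay 7.43 kb from a region called in dexamethasone alone. The folds were 12.9 ± 2.22 and 10.1 ± 0.608 at chr3:120067548-120068706, 15.0 ± 0.859 and 11.8 ± 0.213 at chr1:97186891-97188096, and 14.7 ± 0.571 and 11.7 ± 0.749 at chr8:7770958-7771363 (SD, n = 3 each). Their peaks were not wider with dexamethasone, with width ratios of 0.912 to 0.981.

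Members with wide margins had wider peaks after dexamethasone. Over the 100 with a margin over 20 points the mean peak width had a median of 451 bp with dexamethasone and 294 bp with ethanol, and the 3 dexamethasone libraries had the 3 widest peaks in 73 of them, against 5.25% of all shared regions. In the weaker set with the same margin the ethanol peaks were the wider ones, at a median of 358 against 266 bp. Width and strength come from the same reads and are not independent measures. Over all members the medians were 408 and 352 bp, and over all shared regions 377 and 378 bp.

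The point of strongest signal also lay elsewhere in some members. The summits of all 3 dexamethasone libraries lay at least 20 bp to the same side of those of all 3 ethanol libraries in 16 of the 100 members with a margin over 20 (16.0%), with gaps of 26 to 227 bp. When members were chosen without ethanol replicate 3 the share was 10.4%, and 11.3 to 12.8% without any other 1 library. The summits of all 6 libraries were still compared each time, so the gap itself was not recomputed without a library. Such a gap was found in 72 of all 2031 members (3.55%), in 572 of all shared regions (1.43%), in 1 of 34 weaker regions with a margin over 20 and in 35 of 2555 weaker regions (1.37%). Summits varied more among weak peaks. Among regions of neither set with a mean ethanol percentile under 25, 75 of 1530 (4.9%) had such a gap. The median distance between summits of ethanol libraries was 36.3 bp in the 100 members and 18.7 bp over all shared regions, and between dexamethasone libraries it was 23 and 18.7 bp. Summits were compared after the strength values had been seen.

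Of the 20 named members, 6 had such a gap. At chr7:80410841-80411343 the dexamethasone summits lay at positions 80411013, 80411025 and 80411021 and the ethanol summits at 80411155, 80411146 and 80411109, a gap of 84 bp. At chr3:43789595-43790054 the dexamethasone summits lay at 43789790, 43789793 and 43789792, within 3 bp, and the ethanol summits at 43789890, 43789913 and 43789859. At chr13:110746912-110747492 the order was the other way round along the chromosome, with dexamethasone summits at 110747309, 110747282 and 110747286 and ethanol summits at 110747217, 110747137 and 110747178. The gaps were 66 and 65 bp at these sites. They were 37 bp at chr22:40654428-40655062, 28 bp at chr17:38177614-38178258 and 26 bp at chr5:131550970-131551401.

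Members were spread over the genome. All 24 chromosomes held some, from 3.5% of the shared regions of chromosome 19 to 6.65% of those of chromosome 18. Members with a margin over 20 points lay on 22 of 24 chromosomes, with 12 on chromosome 1, 10 on chromosome 17, 9 each on chromosomes 2 and 15, 8 on chromosome 10 and 0 on chromosomes 21 and Y. Chromosome 19 had the lowest share of members and 6 with a margin over 20, whereas its weaker set had 181 regions (7.73%) and 0 with such a margin. Chromosome 15 likewise had 9 against 0. More members than weaker regions passed 20 points on 16 of 24 chromosomes, and as many or fewer on 8. Chromosomes 4, 8 and X had 1 against 2 each, chromosomes 6 and 9 had 3 of either and chromosome 11 had 4 of either.

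Among the 100 members with a margin over 20 points, the nearest other shared region was itself a member in 12, against 5.09% of all shared regions. Of the shared regions 5 to 20 kb from these 100, 10.7% of 122 were members and 12.3% belonged to the weaker set (6.4% of all shared regions). At 20 to 50 kb the shares were 9.86 and 6.57% of 213. Over all shared regions, 45.3% had a higher mean percentile with dexamethasone. Around the 100 this was 17.6% of 17 within 5 kb, 53.3% from 5 to 20 kb and 47.4% from 20 to 50 kb. Within 5 kb of any member it was 35.4% of 608 shared regions, with a median difference of −1.73 points, and within 5 kb of a weaker region it was 53.4% of 665. The nearest sites thus leaned against the member's direction on either side. Between 5 and 20 kb from a member it was 48.5%, and 41.7% around weaker regions. From 50 to 200 kb the shares were 45 and 43.4%, close to that of all shared regions.

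Neighbours of the named members moved in either direction. The widest region, on chromosome 10, had its nearest shared region 9.27 kb away, which was a member too (69.5 against 54.5, margin 12.9). The region on chromosome 11 had one 8.85 kb away that stood at 58.6 with dexamethasone and 67.5 with ethanol. Next to chr17:80255253-80255622, 0.641 kb away, a site stood at 66.3 and 69.9. Of the 81 shared regions within 50 kb of the 20 named members, 38 had a higher mean with dexamethasone, 8 were members and 7 belonged to the weaker set, sets that hold 5.09 and 6.4% of all shared regions.

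Dexamethasone-only regions were those called in all 3 dexamethasone and no ethanol libraries. The share with such a region within 50 kb was 8.27% of members (168), 7.95% of the weaker set and 6.8% of all shared regions. The members' share was below that of all shared regions, at 5.95%, when members were chosen by fold instead of q, and was 6.86% under pairing. For a margin over 20 points it was 12 of 100 members (12.0%) and 1 of 34 weaker regions (2.94%). Among the 20 named members 0 had one within 50 kb. The nearest was 59.7 kb from chr7:80410841-80411343. Within 10 kb the share was 2.31% of members, 2.31% of the weaker set and 1.53% of all shared regions.

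For the 100 members with a margin over 20 it was 7 within 10 kb, and these were singled out after the values were seen. At chr20:45946011-45946395 the dexamethasone percentiles were 60.2, 67.9 and 69.1 and the ethanol percentiles 6.7, 6.7 and 39.8. A dexamethasone-only region lay 1.49 kb away at chr20:45947457-45947933, with a fold of 3.69 ± 0.408 (SD, n = 3). At chr11:16947029-16947655 the percentiles were 52.2, 68.2 and 58.1 against 23, 16.4 and 17.8, with a dexamethasone-only region 1.67 kb away at chr11:16945502-16945848 (4.57 ± 0.705-fold, n = 3). At chr19:48167189-48167817 they were 72.3, 67.2 and 70.8 against 30.7, 22.5 and 43.7, with one 3.39 kb away at chr19:48170665-48171120 (5.18 ± 0.324-fold, n = 3). The other 4 were chr18:60548796-60549344, chr18:7754697-7755170, chr12:116814325-116814983 and chr2:54861802-54862186, with dexamethasone-only neighbours 4.21, 6.55, 9.06 and 7.79 kb away. The mean dexamethasone percentile was 43.3 to 70.1 in the 7 members and 8.2 to 46.0 in their neighbours, and in 7 of 7 pairs the member's was the higher. A margin over 20 forces a member's dexamethasone percentiles above 20, and the neighbours were picked for having no ethanol peak. The order within these pairs is therefore a description without a baseline.

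Of the 682 with a margin over 5 points, 68 (9.97%) had another within 50 kb, against 52 of 704 (7.39%) in the weaker set, and no run of 3 with steps of at most 50 kb occurred in either. With no margin asked there were 24 such runs of members and 41 of weaker regions. The share with another within 50 kb then had the other order, at 377 of 2031 members (18.6%) and 559 of 2555 weaker regions (21.9%). The sets differ in size, and no share over all shared regions is given beside these. The longest run held 6 regions in either set. That of the weaker set lay at chr19:39888258-40006383. The longest run of members spanned 108 kb at chr3:9851385-9959067, where 10 shared regions lay, 2 of them in the weaker set. Of its 6 members chr3:9920195-9920875 had the widest margin, 25.2 points, with percentiles of 84.0, 86.2 and 93.2 against 38.7, 46.3 and 58.8 and folds of 13.3 ± 1.07 and 7.23 ± 1.23 (SD, n = 3 each). The next widest was 9.5 points, at chr3:9868823-9869177, and the narrowest 0.01. At chr3:9884897-9885938, the site with the narrowest, the percentiles were 99.2, 99.0 and 99.0 against 98.7, 98.8 and 99.0, and the folds were 17.5 ± 0.432 and 17 ± 0.431. This run was picked by its length after the values were seen.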

How the data were processed

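The deposited data were 6 DNase-seq peak lists, 1 per library, of 58281 to 61344 peaks in hg19. MACS2 2.1.0, Bowtie, bedtools and CASAVA 1.3 are listed, with no settings, per the submitters' processing notes. Per the file layout, the authors' values per peak are a fold enrichment (ratio) at the summit, a p-value and a q-value as −log10, a score that follows −log10 q times 10 and was not used, and the summit's offset. The deposited lists hold no read counts, so depth is unknown and no interval on reads can be given. Absence from a list is not closed chromatin.

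Merging, percentiles (ties at their mean rank), margins and distances between region centres were computed with numpy 2.4.6 and pandas 2.3.3 and tested on simulated lists. The named regions are the 20 members with the widest margins and 3 on either side of the threshold, and others are marked as chosen later. Members, lists and limits were chosen with earlier results of these data known. No test was made, since the rule used the contrast. The deviations of shared regions from their treatment's mean correlated between treatments at r = 0.22, 0.12 and 0.16 for libraries of number 1, 2 and 3. This is how pairing was judged. For unequal numbers r was −0.18 to 0. Deviations within a treatment sum to 0 in each region, so positive values at equal numbers pull the others down. The values for unequal numbers are therefore no separate measure. The labels do not say what a number marks.

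Sequence, motifs and nearby genes need hg19 sequence and annotation, which were not used here, so the planned receptor element search and gene lists were not run and regions are named by position, counted from 1.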

Additional observations from a re-analysis of the deposited data

How the results depend on the processing

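The count of members, 2031, stayed between 1760 and 2314 under 7 settings: fold in place of q, percentiles over shared regions alone, −log10 q of at least 5, lists of one length, merging across gaps of 100 bp, autosomes only and 1 peak per library. A margin of at least 5 gave 682, the replicate block 5101, and leaving out 1 library 3460 to 4561. The ratio to the weaker set, 0.795, was 0.884 by fold, 1.03 over shared regions alone (reversed), 0.956 with lists of one length, 0.969 with a margin of at least 5 and 0.678 to 0.927 without 1 library. The cause was not tested. The share near a dexamethasone-only region, 8.27%, was 5.95% by fold, 6.86% under the replicate block, 2.31% for 10 kb and 6.99 to 7.63% without 1 library. Leaving out 1 library changed the choice of members only, and dexamethasone-only regions were still defined on all 6 libraries.

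At a margin over 20, chosen after seeing the data, the 100 members became 86 to 124 under those 7 settings, always the largest of the 20 sets, 186 under the replicate block and 150 to 182 without 1 library. Their ratio to the weaker set, 2.94, was 5.17 over shared regions alone, 1.77 under the block and 1.27 to 2.46 without 1 library. The 16.0% with displaced summits became 10.4 to 16.3%, with the summits of all 6 libraries compared under every setting. The share carried over to libraries left out was 75.3% for unequal numbers against 82.4%. No margin of the 20 named regions changed sign in 180 recomputed values (16.4 to 74.2 points). Leaving out 1 library or pairing cannot lower a margin, so most of these values could not have changed sign. Only the rankings by fold (16.4 to 63.3 points) and over shared regions alone could have done so. The receptor element search was not run. Unknown depth limits every value, since deeper libraries rank weak sites with less error.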
